A study of Arabidopsis thaliana with 2 samples.

Results

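The strongly raised, well-counted genes described here are 69 loci from the leaf transcriptome of *Arabidopsis thaliana* plants in which WRKY75 was targeted by RNA interference. They were chosen by their values in the authors' deposited table of higher transcripts. A locus was taken where its transcript model with the most reads had at least 200 reads in WRKY75RNAi, at least 1 read in Col-0, and an RPKM (a level in which reads are divided by the length of the model and by the total of the library) higher in WRKY75RNAi by a log2 ratio of at least 2; the smallest ratio among the members was 4.02-fold. These thresholds were met by 92 of the 1231 loci listed as higher (7.47%) and of the 2159 listed loci in all (4.26%), and 23 of the 92 were left out by name, among them VSP1, the terpene synthase gene TPS03 and the myrosinase-binding protein genes MBP1 and MBP2. Since reads and ratio chose the members, their direction and their minimum size follow from the choice and are given as a description, with no test.

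There were 2 libraries, 1 of each genotype. The first came from WRKY75RNAi plants, which carry a silencing construct against the transcription factor gene WRKY75 in the Col-0 ecotype, and the other from wild-type Col-0. Both were made from polyadenylated RNA of leaves number 3 and 4 of plants 28 days old. No source used here names the promoter of the construct, the number of transgenic lines or the number of plants in each library. With 1 library per genotype there is no spread between plants, and the 95% intervals below, exact by the Clopper-Pearson method, come from the read counts and cover counting error only. They and the ratios, which are numbers in brackets where no unit is named, are on the log2 scale, as WRKY75RNAi over Col-0. In bulk leaf RNA, more cells of a type and more RNA per cell cannot be told apart.

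The library totals behind the deposited RPKM values were 38042482 reads for WRKY75RNAi and 41328980 reads for Col-0. WRKY75 (AT5G13080) had 476 reads in WRKY75RNAi, against 1699 reads in Col-0 (log2 ratio -1.72, interval -1.87 to -1.57), the direction that the labels call for. The tables hold only loci that the authors selected for a difference, so leaf markers could not be checked. Of the markers of other organs and cell types, 0 of 10 flower and meristem genes, 0 of 7 root genes and 0 of 7 guard cell and phloem genes were listed. Over all annotated coding genes 4.18% were listed as higher and 3.10% as lower, so lists this short can hold 0 by their size alone. A gene at the same level in both libraries would not be listed, so these counts do not show whether such cells were present. The seed regulator gene FUS3 (154 reads in WRKY75RNAi, 64 in Col-0) was the 1 listed gene of 6 seed markers, and the trichome regulator gene GL3 (63 reads in WRKY75RNAi, 22 in Col-0) the 1 of 8 epidermis and trichome markers. Neither is a member, and the part of such cells in the values below was not tested.

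The members do not form 1 pathway. Jasmonates are lipid-derived hormones made after wounding and insect attack, and factors of the MYC class, which act in their signalling, bind the G-box of promoters. WRKY factors bind a different motif, the W-box. Thionins, lectins and the myrosinase system belong to the stored and induced defences of leaves, and glucosyltransferases and sulfotransferases alter hormones and secondary metabolites. Some glycosyltransferases of the cellulose synthase-like class, though not all, make backbones of wall polysaccharides other than cellulose.

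The members took 0.501% of the reads in WRKY75RNAi (interval 0.499% to 0.503%), against 0.0836% in Col-0 (0.0827% to 0.0845%). Their RPKM in WRKY75RNAi ran between 1.76 and 381.7 with a median of 12.02, against 0.101 to 68.2 with a median of 1.68 in Col-0. In WRKY75RNAi 37 members were at or above 10 RPKM, against 8 in Col-0, and 22 members were under 1 RPKM in Col-0. Some deposited lengths exceed the annotated transcript, as at AT4G37409 (2142 against 1522 bases). Levels compared between genes therefore depend on the lengths used, while the length cancels in the ratio of a gene. A few genes carried most of the reads. The leading gene, AT1G52000, held 22.5% of all member reads in WRKY75RNAi, against 15.3% in Col-0, and the first 10 genes held 72.6% in WRKY75RNAi, against 75.2% in Col-0.

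The median log2 ratio of the members was 2.58, beside 1.57 over all loci listed as higher, a gap that the choice of members sets. The ratio was at least 3 for 23 members and at least 4 for 3 members. For 49 members the lower limit of the interval was itself at or above 2. For the other 20 it was lower, down to 1.64 for AT2G35070, so their intervals reached below the threshold. Just inside the ratio threshold lay UGT75B1 (2.006), CSLG2 (2.013) and AT2G35070 (2.013), and just outside it AT1G55260 (1.997), ChlAKR (1.98) and MSL4 (1.98). Just inside the threshold of reads lay AT1G69480 with 226, AT1G14120 with 236 and AT5G01790 with 239 reads in WRKY75RNAi, and just outside it AGL19 with 194, AT1G71000 with 190 and AT4G02360 with 188. AT4G07850, with 187 reads in WRKY75RNAi and 2 in Col-0, was outside the group by its reads although its log2 ratio (6.67, interval 4.79 to 9.72) was above that of every member. Without the minimum of 200 reads, 26.3% of the loci listed as higher had a log2 ratio of at least 2 with reads in Col-0, and 232 loci were outside the group by reads alone. In the table of lower loci the mirrored thresholds (at least 200 reads in Col-0, at least 1 read in WRKY75RNAi, log2 ratio of -2 or less) were met by 70 of 931 loci (7.52%).

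**Figure D1:**
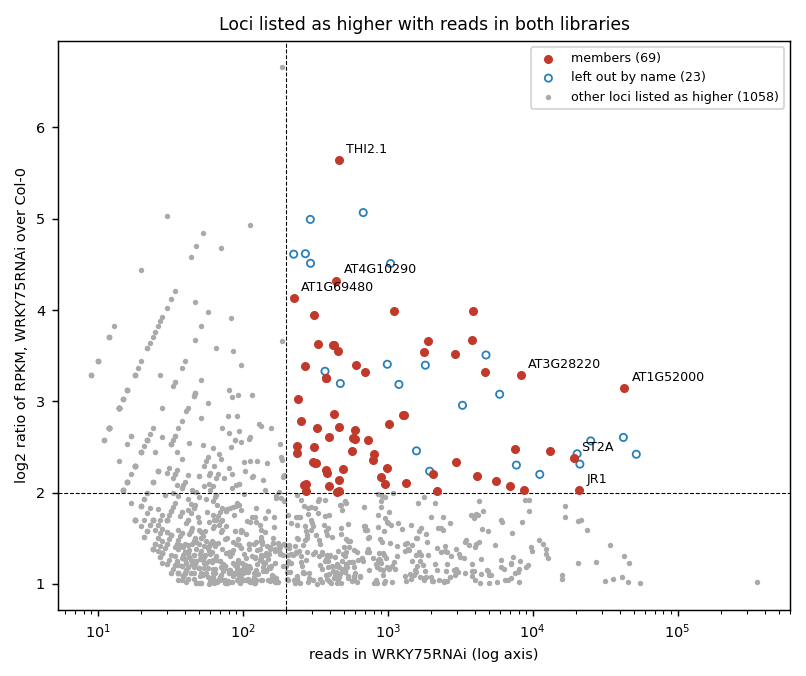
Each point is 1 locus listed as higher with reads in both libraries, placed by its reads in WRKY75RNAi (log axis) and its log2 ratio of RPKM, WRKY75RNAi over Col-0; dashed lines mark 200 reads and a log2 ratio of 2, filled red points are the 69 members and open blue points the 23 loci left out by name. The members spread between 226 and 42925 reads, and THI2.1, at 460 reads, has the highest ratio among them.

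The gene with the highest ratio of all members belongs to defence. THI2.1 (AT1G72260), which encodes a thionin, a small cysteine-rich antimicrobial protein that jasmonate induces, had 460 reads and 11.96 RPKM in WRKY75RNAi, against 10 reads and 0.239 RPKM in Col-0 (log2 ratio 5.64, interval 4.75 to 6.71). Its level was the second lowest of the group in Col-0 and near the median of the group in WRKY75RNAi. The 10 reads in Col-0 set the width of its interval.

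The lectin gene AT1G52000, annotated as a mannose-binding lectin, had the most reads of the group. It was at 42925 reads and 381.7 RPKM in WRKY75RNAi, against 5276 reads and 43.2 RPKM in Col-0 (3.14, interval 3.10 to 3.19). JR1 (AT3G16470), a lectin gene known for its response to jasmonate, had 21029 reads and 262.5 RPKM in WRKY75RNAi, against 5617 reads and 64.5 RPKM in Col-0 (2.02, interval 1.98 to 2.07). Lectins bind sugars, and several of this class in *Arabidopsis* are found with myrosinase, the enzyme that breaks down glucosinolates. The thionin gene and these 2 lectin genes held 33.8% of the members' reads in WRKY75RNAi, against 31.6% in Col-0.

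Both lectin genes lie beside others of their class. The next coding gene after AT1G52000 is MBP2 (1197 reads in WRKY75RNAi, 143 in Col-0, log2 ratio 3.18), followed by MBP1 (42292 reads in WRKY75RNAi, 7558 in Col-0, 2.60); both met the thresholds but were left out by name. JR1 overlaps its neighbour JAL34 on the opposite strand over 631 bases, and JAL34 was also listed as higher (1.70). Since the sources used here do not say whether strand was used in counting, reads of the overlap cannot be told apart. Of 47 genes annotated with words for mannose-binding, jacalin-related or myrosinase-binding lectins, 9 (19.1%) were in the table of higher loci and 2 (4.26%) in that of lower ones. Of the 27443 annotated coding genes of the genome, 1148 (4.18%) were in the table of higher loci and 850 (3.10%) in that of lower ones, and the counts of families and lists are to be read beside these shares. Each family named here was looked up because it holds a member, so that its count of higher genes includes at least 1 by choice. These 2, AT2G25980 and JAL22, had 0 and 5 reads in WRKY75RNAi, against 8 and 30 reads in Col-0.

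The strongest group by median ratio was a small family of membrane proteins with the domain DUF677. AT3G28290 and AT3G28300, both annotated as AT14A, a protein with a short region similar to animal integrins, had 3877 and 3825 reads in WRKY75RNAi, against 266 and 326 reads in Col-0. In RPKM these were 54.7 and 54.0 in WRKY75RNAi, against 3.45 and 4.23 in Col-0 (log2 ratios 3.98, interval 3.81 to 4.17, and 3.67, interval 3.51 to 3.84). These are not independent members. Their annotated transcripts are identical over all 1672 bases, and in the RefSeq TAIR10.1 genome the loci, whose starts lie 18233 bases apart, share an identical stretch of 6327 bases that takes in the whole gene and 479 bases before it. Reads of one cannot be told from reads of the other, and how the authors' counting divided them is not given. Summed over the pair, 7702 reads in WRKY75RNAi against 592 in Col-0 gave a log2 ratio of 3.82 (interval 3.70 to 3.94). If reads were counted at both loci, this sum holds them more than once and the interval is too narrow.

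The 250 bases before the start of these 2 loci are shown because they carry the identity beyond the transcript. The letters are the same at both places; capitals mark a W-box, TTGACT, which starts 148 bases before the gene start. Coordinates are those of TAIR10.1 and the text is in the direction of the gene.
AT3G28290, chr3:10547191-10547440, plus strand: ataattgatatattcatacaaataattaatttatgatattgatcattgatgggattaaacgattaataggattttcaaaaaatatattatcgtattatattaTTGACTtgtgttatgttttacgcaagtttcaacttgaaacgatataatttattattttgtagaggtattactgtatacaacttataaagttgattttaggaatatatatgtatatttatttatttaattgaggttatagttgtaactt
AT3G28300, chr3:10565424-10565673, plus strand: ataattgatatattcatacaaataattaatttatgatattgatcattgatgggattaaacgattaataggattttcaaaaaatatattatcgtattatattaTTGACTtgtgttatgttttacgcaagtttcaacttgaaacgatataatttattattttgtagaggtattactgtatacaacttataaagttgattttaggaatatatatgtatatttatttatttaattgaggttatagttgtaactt

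The third gene of this family, AT3G28270, lies close by on the same chromosome and is not a copy of the pair: no alignment with at least 97% identity over at least 50 bases was found between them. It had 1107 reads and 15.2 RPKM in WRKY75RNAi, against 76 reads and 0.958 RPKM in Col-0 (3.98, interval 3.65 to 4.34). Its other listed model gave 4.44. The annotation holds 15 genes with this domain, of which these 3 (20%, beside 4.18% of coding genes) were listed, all as higher. The identical pair enters this share as separate genes, although their reads cannot be told apart. The share therefore does not show that both genes of the pair were raised. AT3G28220, a TRAF-like gene also on chromosome 3, had 8300 reads and 93.9 RPKM in WRKY75RNAi, against 925 reads and 9.63 RPKM in Col-0 (3.29, interval 3.19 to 3.38). Of 73 TRAF-like genes 6 (8.22%, beside 4.18% of coding genes) were listed, all as higher, and 1 of the 6 is the member.

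The cell wall group held 9 members, with log2 ratios between 2.01 and 3.66 and a median of 2.42. CSLA10 (AT1G24070), of the class of glycosyltransferases that make mannan backbones, had 1885 reads and 14.2 RPKM in WRKY75RNAi, against 162 reads and 1.12 RPKM in Col-0 (3.66, interval 3.43 to 3.90). TBL26 (AT4G01080), of a family whose studied members add acetyl groups to wall polysaccharides, had 378 reads and 5.22 RPKM in WRKY75RNAi, against 43 reads and 0.547 RPKM in Col-0 (3.26, interval 2.80 to 3.75). Further members of the same class as CSLA10 were ATCSLA15 (log2 ratio 2.86) and ATCSLA09 (2.102), which is known to make glucomannan. The remaining wall genes were CSLG2 (2.01), the expansin gene EXPA16 (2.01), whose class of proteins loosens walls, the arabinogalactan protein gene FLA15 (2.21), the glycine-rich protein gene GRP5 (2.42) and AT2G16630 (2.75), annotated with the Ole e 1 and extensin family.

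Of 32 genes with a CSL name, which together form the cellulose synthase-like family, 8 (25.0%) were listed as higher, beside 4.18% of coding genes, and 0 as lower, beside 3.10%. Of the 8, 4 are members; the others had fewer reads. CSLG2 had 2192 reads in WRKY75RNAi, against 590 in Col-0, and its direct neighbours CSLG3 (186 reads in WRKY75RNAi, 16 in Col-0, log2 ratio 3.66) and CSLG1 (130 reads in WRKY75RNAi, 21 in Col-0, 2.75) were also listed as higher but had too few reads for the group. CSLA01 had 48 reads in WRKY75RNAi and 0 in Col-0, and CSLD1 had a log2 ratio of 1.38. Expansins pointed both ways, with 3 of 38 (7.89%) among the higher loci and 4 (10.5%) among the lower by the words searched. PNP-A, a natriuretic peptide gene related to expansins, is 1 of the 4. So did the 59 genes found by words for fasciclin-like and arabinogalactan proteins. Of these, 3 (5.08%), FLA15 included, were listed as higher, and 2 (3.39%), AGP16 (-1.74) and AGP5 (-1.37), as lower.

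The 7 hydrolase genes had log2 ratios between 2.85 and 3.95, with a median of 3.51. ILL5 (AT1G51780), of the family of amidohydrolases that release auxin from amino acid conjugates, had 312 reads and 3.95 RPKM in WRKY75RNAi, against 22 reads and 0.257 RPKM in Col-0 (3.95, interval 3.32 to 4.64). The GDSL lipase gene AT5G45950 had 452 reads and 4.53 RPKM in WRKY75RNAi, against 42 reads and 0.388 RPKM in Col-0 (3.55, interval 3.09 to 4.04). A further GDSL gene, AT1G54020, had 1792 reads in WRKY75RNAi, against 167 in Col-0 (3.54), and its 3 listed models lay between 3.54 and 3.92. It stands between AT1G54010 (9409 reads in WRKY75RNAi, 2945 in Col-0, 1.80) and MVP1 (8976 reads in WRKY75RNAi, 4292 in Col-0, 1.18), and GDSL proteins of this kind are found in complexes with myrosinase. Among the members annotated as alpha/beta-hydrolases, AT5G47330 reached 44.6 RPKM in WRKY75RNAi, against 3.90 RPKM in Col-0 (3.51). AT5G41900 had a log2 ratio of 3.32 and AT3G24420 one of 2.85. Of 191 genes found by the words for alpha/beta-hydrolases, 20 (10.5%) were listed as higher and 5 (2.62%) as lower. MES7 (AT2G23560), an esterase that can release salicylic acid from methyl salicylate, had 240 reads in WRKY75RNAi, against 32 in Col-0 (3.03, interval 2.49 to 3.61), and MES9, an esterase with the same activity, was listed as higher at 1.01.

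The 14 genes of metabolic enzymes had a median log2 ratio of 2.32 and included the gene with the highest level in Col-0. ST2A (AT5G07010), a sulfotransferase that acts on hydroxylated jasmonate, had 19217 reads and 353.7 RPKM in WRKY75RNAi, against 4027 reads and 68.2 RPKM in Col-0 (2.37, interval 2.33 to 2.42). PGL5 (AT5G24420), annotated as a 6-phosphogluconolactonase, an enzyme of the pentose phosphate pathway, had 7577 reads and 142.9 RPKM in WRKY75RNAi, against 1474 reads and 25.6 RPKM in Col-0 (2.48, interval 2.40 to 2.56). These abundant genes had narrow intervals. CAD9 (AT4G39330), annotated as a cinnamyl alcohol dehydrogenase, a class that includes enzymes of lignin precursors, had the largest ratio of the enzymes, with 603 reads and 7.32 RPKM in WRKY75RNAi, against 62 reads and 0.693 RPKM in Col-0 (3.40, interval 3.02 to 3.803). PRN (AT3G59220), a pirin that interacts with the alpha subunit of the G protein, had 1305 reads and 23.0 RPKM in WRKY75RNAi, against 196 reads and 3.18 RPKM in Col-0 (2.85, interval 2.64 to 3.08).

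Of 9 annotated cinnamyl alcohol dehydrogenase genes, 5 (55.6%, beside 4.18% of coding genes) were listed as higher, 2 of them members, and 0 as lower, beside 3.10% of coding genes. ELI3-1 (AT4G37980), an elicitor-activated gene that is also named CAD7, had 5594 reads and 71.4 RPKM in WRKY75RNAi, against 1395 reads and 16.4 RPKM in Col-0 (2.12, interval 2.04 to 2.21). Its neighbours on either side were ELI3-2 (4102 reads in WRKY75RNAi, 1313 in Col-0, 1.76) and CAD6 (112 reads in WRKY75RNAi, 38 in Col-0, 1.68). CAD5, which acts in lignin synthesis, was far more abundant and was just over 2-fold higher (414.9 RPKM in WRKY75RNAi, 203.1 in Col-0, log2 ratio 1.03).

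Glucosyltransferases were represented by the tandem pair UGT76E12 (2.27) and UGT76E11 (2.26) and by UGT75B1 (2.01). An annotated non-coding gene covers 100% of each of these 3 on the opposite strand, and that of UGT76E12, AT3G46658, was itself listed with 921 reads in WRKY75RNAi, against 256 in Col-0 (1.97). Their reads cannot be told apart. Neighbours of this cluster differed: AT3G46650 was listed as higher (1.83) and AT3G46690 as lower (-1.28). Of 149 genes found by the words for UDP-glucosyltransferases, 18 (12.1%) were listed as higher and 6 (4.03%) as lower. The remaining enzymes were CYP81D11 (2.17), a cytochrome P450 known to respond to cis-jasmone, the O-methyltransferase gene AT4G35160 (2.20), the 2-oxoglutarate-dependent oxygenase genes AT2G30830 (2.61) and AT1G14120 (2.51), the Rossmann-fold gene AT1G75290 (2.09) and GPDHC1 (2.498), for which the 3 listed models lay between 1.93 and 2.89. AT2G30830 overlaps AT2G30820 (46 reads in WRKY75RNAi, 6 in Col-0) over 24.1% of its span on the opposite strand, and AT1G75290 overlaps a non-coding gene over 24.4%. O-methyltransferases as a family pointed both ways, with 4 of 29 (13.8%) among the higher loci and 6 (20.7%), including IGMT2 (-2.41), IGMT3 (-3.40), IGMT4 (-2.11) and CCOAMT (-3.13), among the lower.

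Of the 8 genes of transport and metal handling, AT3G21670 and AT1G69480 had the largest ratios. AT1G69480, which carries the EXS domain of phosphate exporters, had 226 reads and 1.76 RPKM in WRKY75RNAi, against 14 reads and 0.101 RPKM in Col-0 (4.13, interval 3.36 to 5.03), the lowest levels of the group in both libraries. AT3G21670, which encodes the nitrate transporter family member NPF6.4, had 4712 reads and 51.7 RPKM in WRKY75RNAi, against 513 reads and 5.18 RPKM in Col-0 (3.32, interval 3.19 to 3.45). PIP1;4 (AT4G00430), a water channel of the plasma membrane, had 6959 reads and 84.0 RPKM in WRKY75RNAi, against 1794 reads and 19.9 RPKM in Col-0 (2.08, interval 2.0002 to 2.15). It was 1 of 7 listed among 37 aquaporin genes (18.9%, beside 4.18% of coding genes), all as higher, with the abundant PIP2A (1.22), RD28 (1.25), PIP2B (1.13) and GAMMA-TIP (1.12) at smaller ratios. The others were the proline transporter gene ProT3 (2.59), the malate channel family gene AT1G68600 (2.33), the MATE efflux gene AT4G21910 (2.18), HIPP25 (2.25), named for a heavy metal-binding domain, and CDT1 (2.09), named for cadmium tolerance. Of 55 MATE genes 3 (5.45%) were listed as higher and 5 (9.09%) as lower, and the direct neighbour of AT4G21910, AT4G21903, was among the lower (341 reads in WRKY75RNAi, 889 in Col-0).

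The 11 genes of transcription and signalling were moderate in level, at 4.08 to 18.7 RPKM in WRKY75RNAi and 0.635 to 3.64 RPKM in Col-0. AT1G76640, also named CML39, encodes a calmodulin-like calcium sensor and had 331 reads and 18.2 RPKM in WRKY75RNAi, against 29 reads and 1.46 RPKM in Col-0 (3.63, interval 3.08 to 4.23). Of 57 genes annotated as calmodulin-like or with EF-hands it was 1 of 2 (3.51%) listed as higher, while 8 (14.0%) were listed as lower, among them CML37 (-1.53) and TCH3 (-1.02). AT1G78170, annotated as an E3 ubiquitin ligase, had 377 reads and 9.57 RPKM in WRKY75RNAi, against 43 reads and 1.01 RPKM in Col-0 (3.25, interval 2.79 to 3.74). The basic helix-loop-helix factor genes AT4G20970 (2.68), AT5G50915 (2.58) and AT1G62975 (2.09) were 3 of 18 such genes listed as higher among 126 (14.3%), and 5 (3.97%) were listed as lower. The AP2 domain factor genes AT5G61890 (2.60) and AT5G07310 (2.33, also named ERF115) belong to a family with 7 of 111 genes (6.31%) among the higher loci and 8 (7.21%) among the lower. RABH1e (2.79), a small GTPase, AT2G41170 (2.71), an F-box gene, MAPKKK17 (2.36), a kinase that acts in abscisic acid signalling, and RLP6 (2.14), a receptor-like protein, complete the group.

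Genes of dehydration response were few but abundant. RD22 (AT5G25610), a BURP domain gene used as a marker of drought and abscisic acid, had 13173 reads and 134.9 RPKM in WRKY75RNAi, against 2611 reads and 24.6 RPKM in Col-0 (2.45, interval 2.39 to 2.52). RD20 (AT2G33380), a caleosin of lipid bodies that binds calcium, had 8759 reads and 140.4 RPKM in WRKY75RNAi, against 2340 reads and 34.5 RPKM in Col-0 (2.02, interval 1.96 to 2.09). The genes of cysteine proteases were at low levels. AT4G11320, also named CP2, had 325 reads and 4.73 RPKM in WRKY75RNAi, against 54 reads and 0.724 RPKM in Col-0 (2.71, interval 2.29 to 3.15). CEP3 (AT3G48350), a cysteine endopeptidase gene, had 314 reads and 4.50 RPKM in WRKY75RNAi, against 68 reads and 0.896 RPKM in Col-0 (2.33, interval 1.94 to 2.73). BETA-VPE (2.08), which processes vacuolar proteins, was close to them in level.

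Of the 9 members with other or uncharacterised products, 5 had ratios above 3. AT4G10290, a cupin gene, had 442 reads and 5.70 RPKM in WRKY75RNAi, against 24 reads and 0.285 RPKM in Col-0 (4.32, interval 3.73 to 4.98), the second highest ratio of the members. The uncharacterised genes AT2G47485 and AT4G19430 were alike in level, with 16.2 and 15.9 RPKM in WRKY75RNAi, against 1.32 and 1.30 RPKM in Col-0. Their reads were 419 and 428 in WRKY75RNAi, against 37 and 38 in Col-0 (log2 ratios 3.62, interval 3.13 to 4.15, and 3.61, interval 3.13 to 4.13). AT4G37409 (269 reads in WRKY75RNAi, 28 in Col-0, 3.38) lies on the opposite strand within CYP81F4, a gene of indole glucosinolate modification left out by name, which covers 99.9% of it and had 370 reads in WRKY75RNAi, against 40 in Col-0 (3.33). With the counting strand not given, reads of these genes cannot be told apart. ASG8 (2.45), AT5G01790 (2.44), AT2G35070 (2.01) and the pseudogene AT5G19097 (2.33) complete the list.

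**Figure D2:**
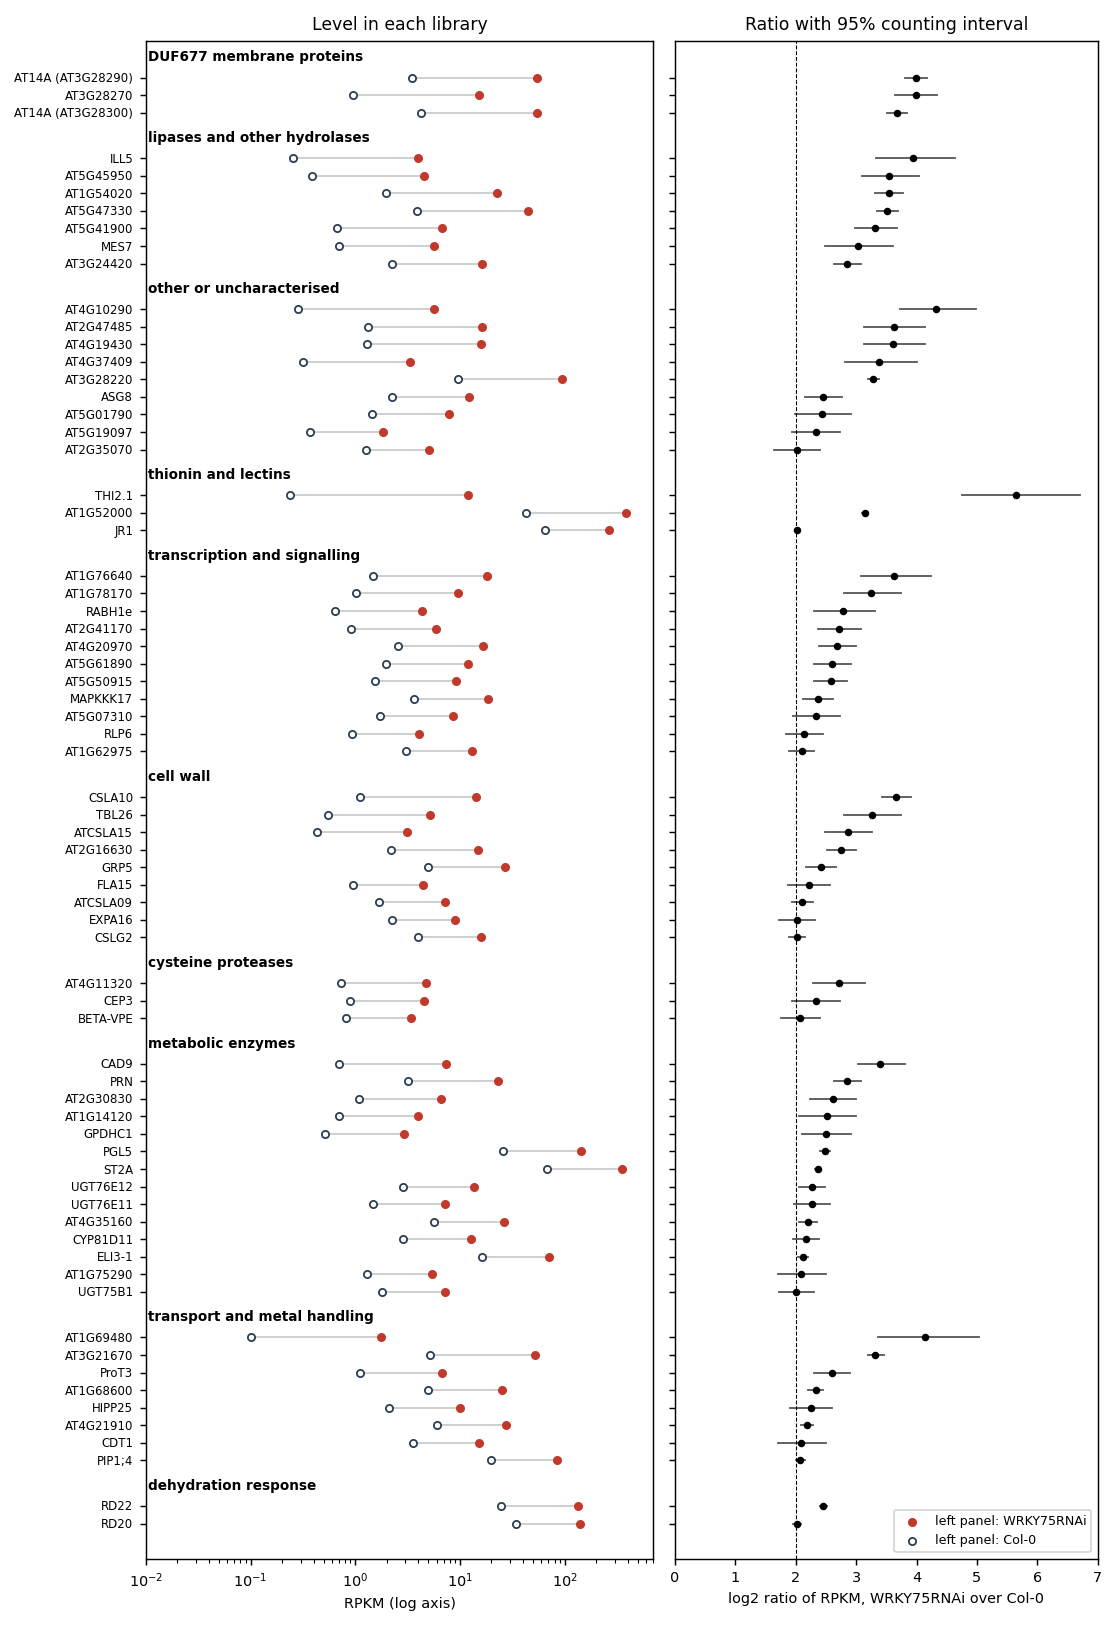
The left panel gives the RPKM (log axis) of each of the 69 members in WRKY75RNAi (filled) and Col-0 (open), 1 library each, grouped by role; the right panel gives the log2 ratio of RPKM, WRKY75RNAi over Col-0, with its exact 95% counting interval and a dashed line at 2. THI2.1 stands apart at 5.64, the DUF677 genes lie between 3.67 and 3.98, and abundant genes such as JR1, ST2A and RD22 have the narrowest intervals.

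The members were set against wider gene lists, all drawn up with earlier results of these data known. Of 24 genes of jasmonate and wound response, 10 (41.7%) were listed as higher, beside 4.18% of coding genes, and 0 as lower, beside 3.10%. Of the 10, 3 are members (THI2.1, JR1 and ST2A). The other 7 were LOX2 (1.02), AOC1 (1.01), JAZ8 (1.14), JAZ10 (1.02), TPS04 (1.05), AT2G34810 (1.33) and JRG21 (1.21). TPS04 is a terpene synthase gene and JRG21 a jasmonate oxidase gene. Each of the 7 had at least 3836 reads in WRKY75RNAi, above the minimum of reads for the group. Their smaller ratios than those of the members therefore follow from the choice of members. The remaining 14 genes were not listed. In the myrosinase system 5 of 13 genes (38.5%, beside 4.18% of coding genes) stood in the table of higher loci and 0 in the other. AT1G54020 was the member among them, beside NSP1 (1.41), NSP4 (1.41) and its own direct neighbours AT1G54010 (1.80) and MVP1 (1.18). The myrosinase list does not hold MBP1 (2.60) or MBP2 (3.18), and the jasmonate list does not hold VSP1. These genes met the thresholds and were left out by name, so the members are not the only strongly raised genes of either system.

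Beside the marker lists given above, 3 pathway lists held no member, and 0 of their genes were listed as lower. Listed as higher were 3 of 18 genes (16.7%) of aliphatic glucosinolate synthesis (SOT17 at 1.30, AOP2 at 1.44, MYB76 at 1.32), 6 of 18 (33.3%) of flavonoid and anthocyanin synthesis and 3 of 16 (18.8%) of sugar metabolism (BAM5 at 1.88, AMY1 at 1.41, SWEET4 at 1.91), beside 4.18% of coding genes. Apart from TT5 (242 reads in WRKY75RNAi, 130 in Col-0), the flavonoid genes had few reads. PAP1, a regulator of anthocyanins, had 92 reads in WRKY75RNAi, against 14 in Col-0 (2.84, interval 2.02 to 3.76), and the chalcone synthase gene TT4 had 59 reads in WRKY75RNAi, against 14 in Col-0 (2.19, interval 1.34 to 3.15). TT5 (1.02), FLS1 (1.70) and GSTF12 (2.03, on 15 reads in WRKY75RNAi and 4 in Col-0) were the others with reads in both libraries, and UF3GT had 7 reads in WRKY75RNAi and 0 in Col-0.

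**Figure D3:**
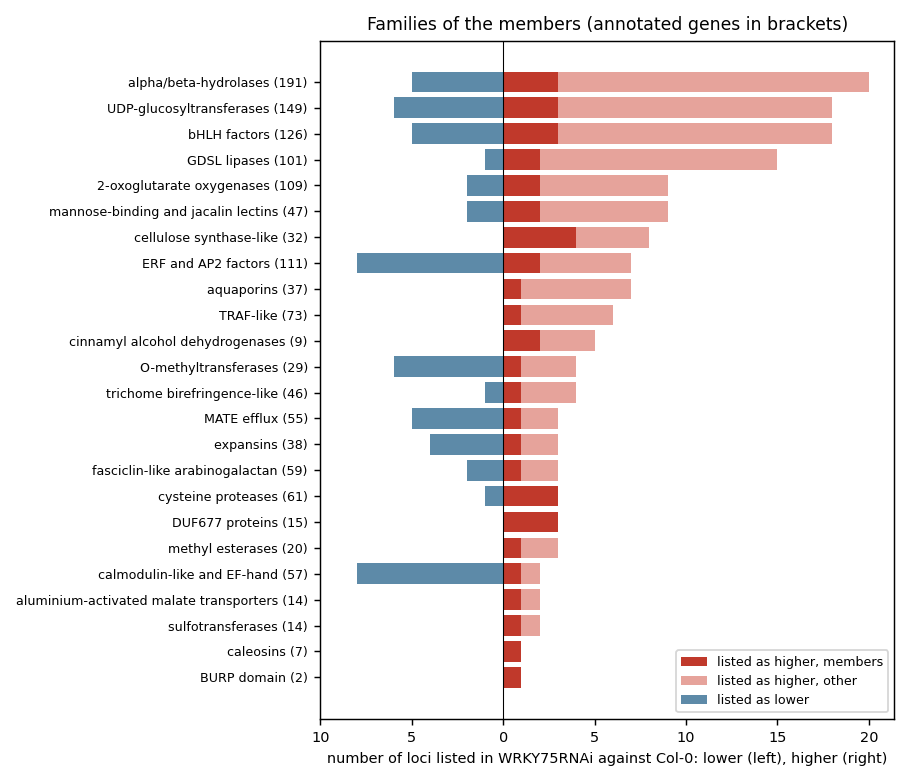
Bars give, for families found by words in the RefSeq annotation, the number of loci listed as higher in WRKY75RNAi (right, dark red for members) and as lower (left), with the number of annotated genes in brackets. Cellulose synthase-like genes, cinnamyl alcohol dehydrogenases, aquaporins and TRAF-like genes have no bar to the left, while calmodulin-like and AP2 domain genes have the longest bars there.

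Members were found on every nuclear chromosome. Chromosomes 1 to 5 held 16, 11, 15, 14 and 13 members, which is 4.98%, 5.50%, 6.17%, 7.25% and 4.80% of the loci listed as higher on each. Of the 68 protein-coding members, 18 (26.5%) had a directly neighbouring coding gene that was also listed as higher, beside 232 of 1148 coding loci listed as higher (20.2%). A direct neighbour listed as lower was found for 4 members (5.88%), beside 42 of the 1148 (3.66%). Annotated genes overlap 14 members, in each case on the opposite strand, and the overlap covers at least 20% of the member at 6 of them.

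Promoters were read from TAIR10.1 by the annotated gene start, as the 250 bases before it. Both strands were searched. The G-box, CACGTG, was present at 12 of 68 protein-coding members (17.6%), beside 11.1% of coding loci listed as higher and 6.49% of 27443 coding genes of the genome. The related motif CACATG was present at 14 members (20.6%), beside 15.2% and 11.1% in the same sets. The core of the abscisic acid response element, ACGTG, which is part of the G-box, was present at 29 members (42.6%), beside 31.4% and 22.9%. It was found without a G-box at 17 members (25.0%), beside 16.4% of coding genes, and the share among loci listed as higher was not taken for this count. The shares of these 3 motifs were higher among the members than among coding genes; no test was made.

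The other motifs had shares near or below those of coding genes. The W-box, TTGACC or TTGACT, was present at 19 members (27.9%), beside 25.0% of coding loci listed as higher and 28.4% of coding genes. AT3G28290 and AT3G28300, whose windows are identical, are both counted among the 19. The core TGACG was present at 13 members (19.1%, beside 18.6% of coding genes), the core CCGAC at 9 (13.2%, beside 11.97%), the heat shock element GAANNTTC at 3 (4.41%, beside 9.55%) and the GCC box, GCCGCC, at 0 (beside 1.87%). A match is a string of letters in a window and not a bound site.

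The G-box promoters of the 4 members with the largest ratios among those that hold the motif are shown, since they come from genes of unlike roles that share it. They belong to the EXS domain gene AT1G69480, the mannan synthase class gene CSLA10, the TRAF-like gene AT3G28220 and the pirin gene PRN. Each is 250 bases in the direction of the gene and ends just before its start, in TAIR10.1 coordinates, with the G-box in capitals.
AT1G69480, chr1:26117956-26118205, minus strand: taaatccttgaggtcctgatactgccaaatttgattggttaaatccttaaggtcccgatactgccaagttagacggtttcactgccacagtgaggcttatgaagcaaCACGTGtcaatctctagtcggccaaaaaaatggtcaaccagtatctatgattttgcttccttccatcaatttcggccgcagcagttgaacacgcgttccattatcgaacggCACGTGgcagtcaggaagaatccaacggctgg
CSLA10, chr1:8519985-8520234, minus strand: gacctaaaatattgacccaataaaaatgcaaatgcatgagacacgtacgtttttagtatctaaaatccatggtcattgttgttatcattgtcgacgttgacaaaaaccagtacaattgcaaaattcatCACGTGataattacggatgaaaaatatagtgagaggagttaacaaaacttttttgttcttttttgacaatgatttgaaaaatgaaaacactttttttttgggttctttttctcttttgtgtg
AT3G28220, chr3:10523931-10524180, plus strand: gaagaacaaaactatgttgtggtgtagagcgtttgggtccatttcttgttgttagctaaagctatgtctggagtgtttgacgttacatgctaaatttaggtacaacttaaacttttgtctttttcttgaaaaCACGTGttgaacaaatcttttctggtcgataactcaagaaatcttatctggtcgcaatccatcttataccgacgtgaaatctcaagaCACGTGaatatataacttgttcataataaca
PRN, chr3:21893562-21893811, plus strand: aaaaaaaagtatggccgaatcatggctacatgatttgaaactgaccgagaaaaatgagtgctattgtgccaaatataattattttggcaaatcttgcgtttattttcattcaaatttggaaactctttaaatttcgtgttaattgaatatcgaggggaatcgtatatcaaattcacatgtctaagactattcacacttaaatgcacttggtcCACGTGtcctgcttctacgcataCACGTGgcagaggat

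The G-box occurs at least 2 times in 3 of these windows, in AT1G69480, AT3G28220 and PRN, and these are the 3 members with more than 1 copy (4.41%, beside 0.875% of coding genes). The share of promoters with more than 1 copy among loci listed as higher was not taken, so it is not known whether this is particular to the members. In PRN the copies start 38 and 15 bases before the gene start, in AT1G69480 143 and 32 bases, and in AT3G28220 118 and 31 bases. CSLA10 has 1 copy, 122 bases before the start. The other members with a G-box were AT2G16630, AT1G14120, PGL5, MAPKKK17, CYP81D11, RD20, AT2G35070 and CSLG2. THI2.1, JR1 and ST2A, the members of the jasmonate list, have none in this window.

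**Figure D4:**
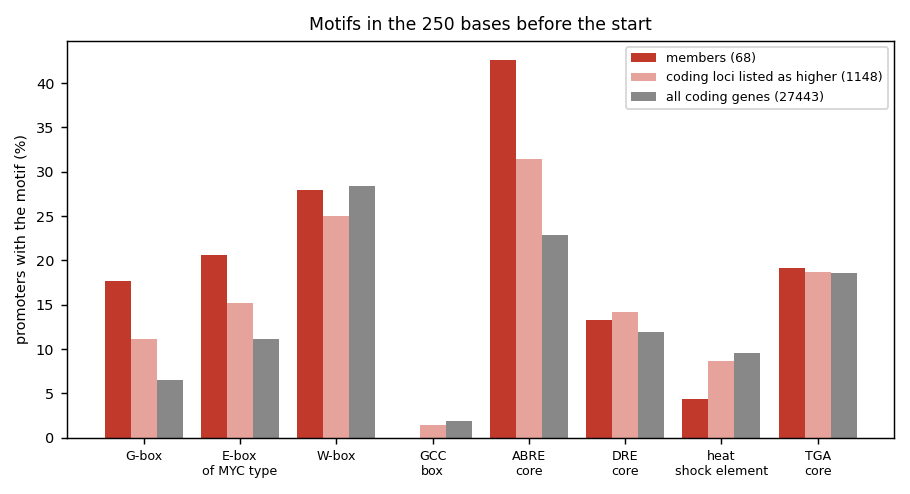
Bars give the percentage of promoters (250 bases before the annotated start, both strands) with each motif for 68 protein-coding members, 1148 coding loci listed as higher in WRKY75RNAi and 27443 coding genes of the genome. The G-box, the MYC-type E-box and the ABRE core are more frequent among members than in the other sets, and the W-box is near the genome share.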

How the data were processed

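Polyadenylated leaf RNA was sequenced from WRKY75RNAi and Col-0 plants, 1 library each. Per the submitters' processing notes Bowtie and the TAIR10 build were used, while no source used here names the Bowtie version, how reads were counted, whether strand was used or how reads were filtered. Per the file headers, the authors' tables give counts of reads per transcript model, RPKM, the log2 ratio of RPKM, and p-values with false discovery rates from an unnamed test; the deposited log2 ratios and p-values were not used. The number of numeric columns left unmapped was 0. The tables hold only transcripts that the authors selected.

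Library totals were recovered as the median of reads over RPKM and length. Models were reduced to the 1 with the most reads in both libraries together; 10 members had several. The members, lists, roles, families and motifs were chosen with earlier results of these data known. Every member is named; full values are given for the 12 largest ratios, the 10 with the most WRKY75RNAi reads and the first 2 of each role, and further values were added after they were seen. No test of genotype was made. All 69 members were found in the RefSeq TAIR10.1 annotation. TAIR10.1 coordinates and sequences are from that annotation alone, since the deposited files hold none. Transcripts were compared with BLAST 2.17.0 (at least 97% identity over at least 50 bases). Python 3.11.15, pandas 2.3.3 and scipy 1.17.1 were used. The interval and the thresholds were tried on simulated counts with counting error only, which cannot show how they do with differences between plants. Promoters were planned as 250 bases before to 50 after the start; the 250 before are reported. Other settings are in the closing section.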

Additional observations from a re-analysis of the deposited data

How the results depend on the processing

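With a minimum of 100 or 400 reads the group would hold 93 or 47 loci, with a log2 ratio of at least 3 it would hold 23, and with 1 RPKM added to both values 35. Ratios of reads without scaling to library totals left 57, reads summed over models gave 74, and the model with the most WRKY75RNAi reads gave 71, a choice made after seeing the data, as were counting the identical pair once (68) and leaving out loci overlapped over at least 20% of their length (63). The median log2 ratio of 2.58 became 2.01 with 1 RPKM added, and lay between 2.46 and 2.59 under the other 4 settings tried. With 0.1 RPKM added, with 1 RPKM added and with unscaled reads, the lowest log2 ratios of members were 1.93, 1.06 and 1.89. An equal addition to both values cannot change the sign of a ratio, so the signs are no check. Of the 69 members, 59 lay outside their own counting interval with 1 RPKM added, 1 with 0.1 RPKM and 10 with unscaled reads. THI2.1 was at 5.15 with 0.1 RPKM and 3.39 with 1 RPKM. Summing reads over models, which can count a read more than once, gave shares of the library totals of 0.618% in WRKY75RNAi and 0.109% in Col-0. WRKY75 was at -1.61 with 1 RPKM and -1.84 with unscaled reads. With the 50 bases after the start included, member counts were 30 for ACGTG and 10 for CCGAC and the same as reported for the other 6, while shares among coding genes became larger: 7.68% for CACGTG, 12.9% for CACATG, 26.7% for ACGTG, 32.4% for the W-box, 23.1% for TGACG, 15.05% for CCGAC, 11.6% for GAANNTTC and 2.57% for GCCGCC. The members' W-box (27.9%) and TGACG (19.1%) shares then lay below those of coding genes. No paired analysis was possible because each genotype has 1 library, and no library could be left out. Small values in Col-0 limit precision: 31 members had fewer than 100 reads there.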
